A study of Rattus norvegicus with 9 samples.

Results

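The genes described here encode the actin filament system and the adhesion plaques that tie it to the matrix: actins, myosins, tropomyosins, filament crosslinkers and focal adhesion proteins. Of 46 named genes 44 had a row in the count tables, and 40 met the rule of at least 10 counts in 3 or more of the 9 libraries, out of 9031 such genes among 17315. The cells were rat pXEN cells, stem cells of the primitive extraembryonic endoderm, of the single line RX1 of the WKY strain, and were sequenced in triplicate in each of 3 media. Pdgf and Egf, at 10 ng/ml each, and β-mercaptoethanol were in all 3. The medium T was a serum medium, DMEM/MCDB with LA-BSA, ITS, ascorbic acid, 2% fetal bovine serum, 0.5 µM dexamethasone and 10 ng/ml Lif, on plates coated with fibronectin at 100 ng/ml. LPE and CPE were serum-free, DMEM/F12 with Neurobasal, N2 and B27, on collagen I at 10 µg/ml, with 10 ng/ml Lif in LPE and, in its place, 1 µM of the Gsk3 inhibitor Chir99021 in CPE. The series asks how defined media set the form of these cells. T differs from the other media in serum, dexamethasone, basal medium, supplements and coating at once, and from CPE also in Lif and Chir99021. The labels do not say whether the triplicates were separate cultures, so p-values reflect how far these libraries lie apart, which may be technical.

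Actin filaments give a cell its shape. Non-muscle myosin II slides them against each other, alpha-actinins and filamins crosslink them, and tropomyosins, calponins and transgelins bind along them. At focal adhesions talin, vinculin, paxillin, zyxin and the integrin-linked kinase complex join filament ends to integrins, while ezrin, radixin and moesin join the cortex to the plasma membrane. Many of these genes are known targets of serum response factor, a transcription factor whose cofactors are released when actin polymerises. Cells that spread flat on a matrix and cells that form compact epithelial colonies build these structures in different proportions.

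Reads assigned to genes numbered 1698764 to 2161228 per library in T, 3119049 to 3233526 in LPE and 3127352 to 4418465 in CPE, and 1 count was worth 0.227 to 0.579 CPM (read counts scaled to library size). Replicates spread more in LPE and CPE than in T. The variance of a gene's counts was a median of 1.46 times the sampling variance in T. It was 10.2 times in LPE and 7.89 times in CPE, and over the members 2.69, 14.7 and 10.6 times. Few genes in the serum-free media were hit by a single read, 26 to 58 in an LPE library and 33 to 92 in a CPE library. In T, at lower depth, a single read was all that 511 to 791 genes had. Whether the making of the libraries added to the wider spread was not tested. All 10 primitive endoderm markers in the tables were detected in every medium, with summed levels of 9859 to 10396 CPM in T, while LPE had 19578 to 21335 and CPE 12262 to 14033. Single markers went both ways. In LPE against T 5 were called higher and 1 lower (15.0% and 14.7% of all genes). In CPE against T these were 5 and 3 (16.8% and 15.3%), and in CPE against LPE 0 and 5 (9.56% and 8.23%). The 8 smooth muscle markers summed to 133 to 145 CPM in T, 146 to 191 CPM in LPE libraries and 167 to 193 CPM in CPE libraries, nearly all of it from Cald1 and Smtn. Cald1, or caldesmon, which also has a non-muscle form, was not called. Smtn, or smoothelin, was at 16.6 ± 4.56 CPM in T (mean ± SD, n = 3) and was called higher in LPE, at 32.9 ± 11.4 CPM, and in CPE, at 32.8 ± 3.10 CPM (edgeR adjusted p = 0.047 and 0.045). The other smooth muscle markers Myh11, Des, Lmod1 and Actg2 had mean levels of 0 to 2.58 CPM and Myocd and Synpo2 were at 0 in all libraries, and the 7 fibroblast markers summed to 1.39 to 32.4 CPM in T, but 0 in LPE and 0 to 6.44 in CPE. The part of these cells in the results was not tested, and in bulk RNA fewer cells of a type cannot be told apart from less RNA per cell.

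Some members are hard to count. Reads that map to several places enter no gene, and made up 64.9% to 67.6% of reads in T but 51.7% to 59.9% in the serum-free media, and the RefSeq table of GRCr8 names 10 pseudogenes of Actb, 11 of Actg1, 11 of Cfl1, 5 of Myl6 and 3 of Tpm3. Levels of these genes are therefore uncertain, and Myl6, the essential light chain of non-muscle myosin, was listed at 0 in all 9 libraries. That table has 8 members, among them Myh10, Actn4, Zyx, Tln1, Ilk and Rdx, that overlap another protein-coding gene. Whether mapping moved the comparisons of these genes was not tested. Myo6 and Cnn2 are not analysed here. Acta2, Myh9 and Myh14 fell short of the rule, with highest counts of 13, 9 and 16 in any library, and just inside it stood Tagln and Myl9, each with 10 counts or more in 3 libraries.

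In LPE against T, 14 of the 40 members rose and 3 fell, while 23 did not pass the test (edgeR quasi-likelihood test, Benjamini-Hochberg adjusted p under 0.05). Over all 9130 genes tested 29.7% were called, 15.0% higher and 14.7% lower. The median log2 fold change was 0.41 over the members and -0.03 over all genes tested. Rises included both cytoplasmic actins, Actn1, both filamins, Vcl, Zyx, Pdlim1 and Rdx, and the falls were those of Cfl1, Tagln2 and Cnn3. At least 2-fold were 9 of the rises and 1 of the falls, against 8.41% and 6.55% of all genes. The LPE and T libraries did not overlap for 20 members, 50%, and for 47.3% of all genes.

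In CPE against T, 12 of the 40 members rose, 7 fell and 21 were not called. Here the background was 32.1% called, 16.8% higher and 15.3% lower, with a median of 0.10 over the members and -0.01 over all genes. Actb, Actn1, Vcl, Zyx and Pdlim1 rose in this medium too, but Flnc fell, Flna was not called, and Cnn1, Pdlim4 and Jph1 were at 0 counts in every CPE library. Both comparisons share the T libraries. At least 2-fold were 5 rises and 5 falls, 12.5% of the members each, against 10.3% and 6.88% of all genes. The libraries did not overlap for 27 members, 67.5%, and for 54.4% of all genes.

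In CPE against LPE, the comparison in which only Lif and Chir99021 differ as far as the labels say, 5 members rose, 11 fell and 24 were not called. Over all genes 17.8% were called, 9.56% higher and 8.23% lower, and the median was -0.27 over the members and 0.01 over all genes. Flna and Flnc had the lowest p-values among the falls. No rise and 5 falls were at least 2-fold, against 5.02% and 3.81% of all genes, and the libraries did not overlap for 21 members, 52.5%, and for 31.3% of all genes. Falls numbered 7 without any one T replicate, LPE replicate 1 or CPE replicate 1 or 2, and rises numbered 3 without CPE replicate 3. Actb, Actg1, Actn1, Flna, Flnc, Pdlim1 and Rdx kept every call they had in any comparison when any one library was left out. The same held for Vcl, Zyx, Tagln2, Pdlim4 and Cnn1.

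**Figure D1:**
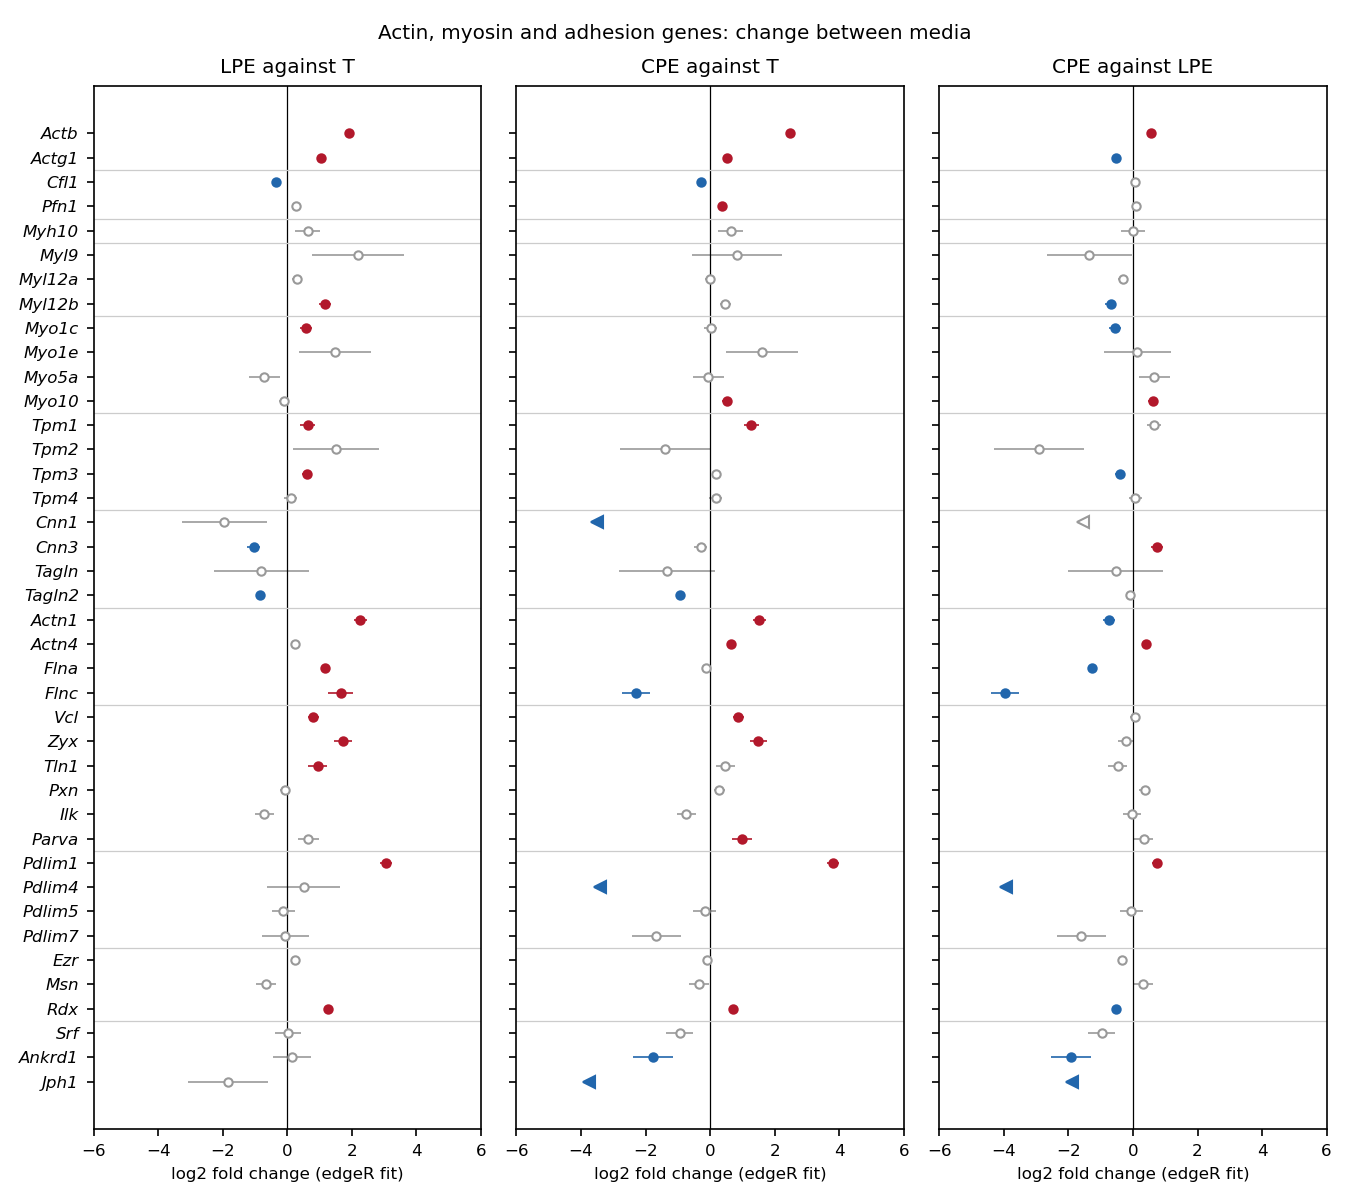
Log2 fold change of each of the 40 members in LPE against T, CPE against T and CPE against LPE, in order of role, with bars of 1 SE from the edgeR fit. Filled red points are called higher, filled blue points called lower and open points not called. Triangles mark genes with 0 counts in 1 of the media, drawn at the lower bound of their change for counting error alone. Pdlim1 stands farthest to the right in both comparisons with T.

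The cytoplasmic actins rose in both serum-free media. Actb, which encodes beta-actin, stood at 1397, 1312 and 1319.6 CPM in the 3 T libraries, at 5742, 4859 and 4734 in LPE and at 8323, 7554 and 6609.8 in CPE. The 3 groups did not overlap and stepped up from T to LPE to CPE. Against T the rise was 3.81-fold in LPE (log2 fold change 1.93, SE 0.09, adjusted p = 3.5e-09 by edgeR) and 5.58-fold in CPE (log2 fold change 2.48, SE 0.10, adjusted p = 4.0e-10), and CPE was 1.47-fold above LPE (adjusted p = 5.8e-04, edgeR). Actg1, which encodes gamma-actin, had 1115, 1187 and 1158 CPM in T, against 2816, 2109 and 2252 in LPE and 1812, 1572 and 1639 in CPE. Its order differed, with LPE highest, and again no groups overlapped. It rose 2.07-fold in LPE and 1.45-fold in CPE, and CPE lay 1.43-fold below LPE (edgeR adjusted p = 2.4e-06, 9.3e-04 and 0.0025).

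Because both counts come from one library, their ratio does not depend on scaling. The Actb to Actg1 read ratio was 1.25, 1.11 and 1.14 in T, 2.04, 2.30 and 2.102 in LPE and 4.59, 4.81 and 4.03 in CPE. Library by library the ratios of the 3 media kept apart, lowest in T and highest in CPE. Actb alone made up 0.131% to 0.139% of gene counts in T, 0.474% to 0.56% in LPE and 0.656% to 0.845% in CPE. The 40 members together took 0.881% to 0.944%, 1.52% to 1.69% and 1.55% to 1.75%, and without Actb 0.75% to 0.811%, 1.05% to 1.13% and 0.833% to 0.906%. The smooth muscle actin gene Acta2, outside the rule, had 3, 3 and 2 counts in T, 0 in every LPE library and 13, 8 and 6 in CPE.

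**Figure D2:**
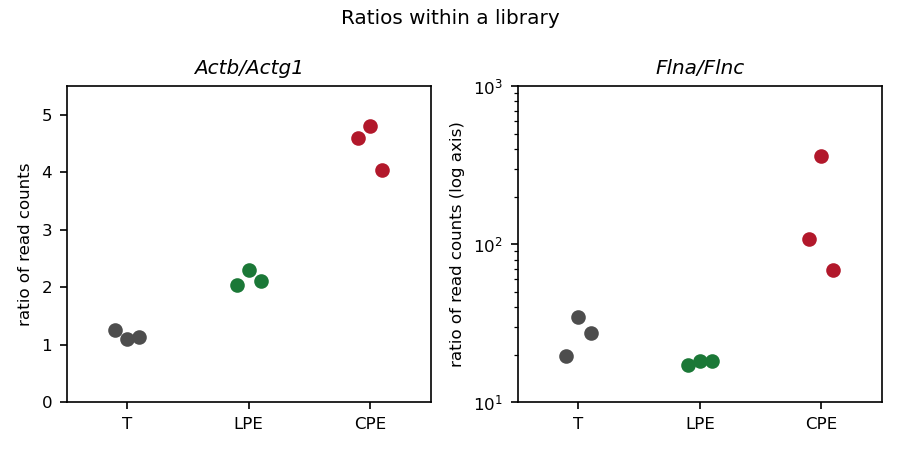
Ratio of Actb to Actg1 reads (linear axis) and of Flna to Flnc reads (log axis) in each of the 3 libraries of T, LPE and CPE; each point is a library. The Actb ratio lies between 1.11 and 1.25 in T and between 4.03 and 4.81 in CPE, and the Flna ratio is highest in the 3 CPE libraries.

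Cfl1 and Pfn1, the members that act on filament turnover, had called changes of at most 1.30-fold. Cfl1, the filament-severing cofilin, was at 948 ± 39.9 CPM in T, against 749.7 ± 45.2 in LPE and 787 ± 66.7 in CPE (means with SD, 3 libraries each, as in what follows). It fell 1.26-fold in LPE and 1.20-fold in CPE (edgeR adjusted p = 0.014 and 0.042). The second of these calls was lost without any one of T replicates 1 to 3, LPE replicates 1 and 3 or CPE replicates 1 and 2 (adjusted p = 0.0536 to 0.147, edgeR), and the first without T replicate 2 or LPE replicate 2 (adjusted p = 0.0573 to 0.0606). Pfn1, or profilin, which feeds monomers to growing filaments, rose 1.30-fold in CPE to 782 ± 97.3 CPM (adjusted p = 0.019, edgeR), a call lost without T replicate 1 or 3 or CPE replicate 1 (adjusted p = 0.0873 to 0.103). Its level in LPE, 734 ± 32.8 against 602 ± 73.8 CPM in T, was not called.

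Crosslinkers separated the 2 serum-free media. Flna, which encodes filamin A and joins filaments into orthogonal networks, had 1252, 970.0 and 1139 CPM in T, against 2435, 2674 and 2439 in LPE and 1046, 988 and 1065 in CPE. All 3 LPE libraries lay above all others, whereas T and CPE overlapped. The rise in LPE was 2.25-fold (log2 fold change 1.17, SE 0.10, adjusted p = 4.2e-07, edgeR), and CPE was 2.44-fold lower than LPE (log2 fold change -1.28, SE 0.10, adjusted p = 2.3e-07, edgeR). CPE against T gave a log2 fold change of -0.12 with an SE of 0.10 and was not called.

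Filamin C, encoded by Flnc and known from muscle, behaved differently in CPE. Flnc had 63.8, 27.8 and 41.4 CPM in T, against 142, 147 and 134 in LPE and 9.73, 2.73 and 15.5 in CPE, and the 3 groups did not overlap. It rose 3.17-fold in LPE (adjusted p = 0.0042, edgeR), fell 4.90-fold in CPE (log2 fold change -2.29, SE 0.43, adjusted p = 8.0e-04, edgeR), and CPE was 15.5-fold below LPE (log2 fold change -3.96, SE 0.44, adjusted p = 1.3e-05, edgeR). The Flna to Flnc read ratio was 19.6, 34.9 and 27.5 in T, 17.2, 18.2 and 18.2 in LPE and 107, 362 and 68.9 in CPE, the CPE values resting on 33, 12 and 48 Flnc reads. Flnc was the single member called higher in LPE and lower in CPE against T.

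Actn1, an alpha-actinin found at stress fibres and adhesions, rose from 29.5, 34.2 and 30.7 CPM in T to 149.6, 161 and 141 in LPE and 108, 88.8 and 74.7 in CPE. The groups did not overlap, with CPE between the others. The changes were 4.79-fold up in LPE, 2.88-fold up in CPE and 1.66-fold down from LPE to CPE (edgeR adjusted p = 9.1e-07, 3.2e-05 and 0.011). Its relative Actn4, found widely in epithelia, had 305 ± 37.9 CPM in T, against 361 ± 40.2 in LPE and 478 ± 50.1 in CPE. Actn4 was called 1.57-fold higher in CPE than in T (adjusted p = 0.0013, edgeR) and 1.32-fold higher than in LPE (adjusted p = 0.04), the latter lost without T replicate 1, LPE replicate 1 or 3 or CPE replicate 1 or 3 (adjusted p = 0.0552 to 0.135). From LPE to CPE, then, Actn4 was called higher and Actn1, Flna and Flnc were called lower.

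**Figure D3:**
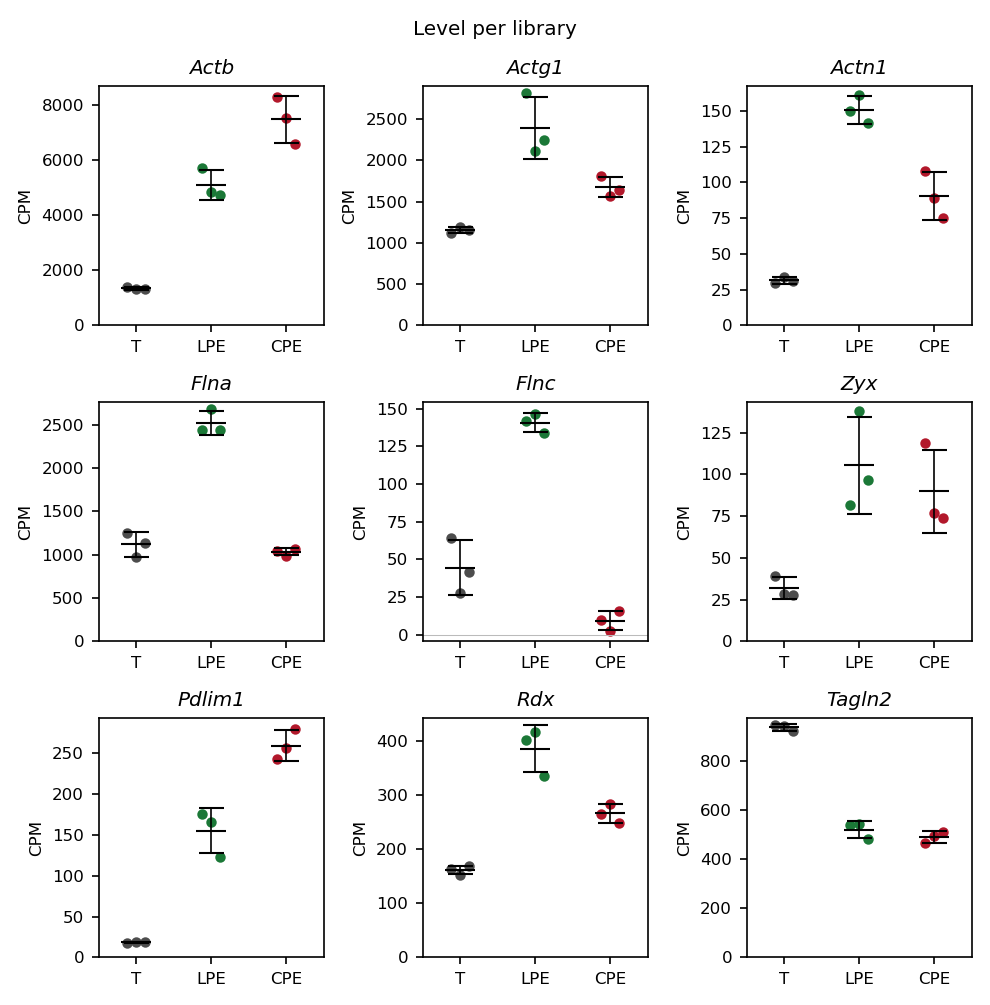
CPM of 9 members in each library of T, LPE and CPE; points are libraries, the long dash is the mean and the bar is 1 SD (n = 3), on axes that differ between panels. Flna and Flnc peak in the 3 LPE libraries, Actb and Pdlim1 in the 3 CPE libraries and Tagln2 in the 3 T libraries.

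Adhesion plaque genes rose or were not called in the serum-free media, and none of the 6 was called between CPE and LPE. Zyx, which encodes zyxin, a LIM protein recruited to adhesions under tension, had 39.3, 28.4 and 27.9 CPM in T, against 81.8, 138 and 96.5 in LPE and 119, 77.0 and 73.8 in CPE. T lay below both other media, which overlapped. It rose 3.31-fold in LPE and 2.82-fold in CPE (edgeR adjusted p = 1.9e-04 and 5.3e-04). Vcl, or vinculin, which reinforces the bond between talin and actin, had 159, 189 and 154 CPM in T, against 219, 377 and 286 in LPE and 324, 304 and 291 in CPE. Every serum-free library was above every T library. Its rises of 1.76-fold and 1.83-fold were close in size (edgeR adjusted p = 0.0021 and 0.0011), and CPE against LPE gave a log2 fold change of 0.06 with an SE of 0.17.

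The other plaque genes gave weaker calls or none. Tln1, which encodes talin, the activator of integrins, had 55.7, 51.0 and 47.4 CPM in T and 93.0, 149 and 54.2 in LPE, where the lowest LPE library lay within the T range, and 56.6, 84.9 and 71.5 in CPE. Its 1.93-fold rise (edgeR adjusted p = 0.027) was lost without LPE replicate 2 or any T replicate (adjusted p = 0.0629 to 0.143). Parva, the parvin of the integrin-linked kinase complex, rose 1.99-fold in CPE to 55.4 ± 7.06 CPM (edgeR adjusted p = 0.023), a call lost without T replicate 1 or 3 or CPE replicate 1 or 2 (adjusted p = 0.0529 to 0.127). Ilk, which encodes the protein named integrin-linked kinase, had 79.3 ± 5.55 CPM in T, against 48.5 ± 19.0 in LPE and 47.6 ± 14.3 in CPE, lower in all serum-free libraries than in T without passing the test (adjusted p = 0.078 and 0.063, edgeR). Pxn, the paxillin scaffold gene, was not called in any comparison, at 136 ± 18.7, 129.5 ± 20.01 and 166 ± 11.7 CPM.

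The PDZ-LIM adaptors, which sit on alpha-actinin and filaments, did not move as one. Pdlim1 had 18.0, 18.5 and 19.1 CPM in T, against 175, 166 and 123 in LPE and 242, 256 and 279.9 in CPE. Its groups were well apart and T was tight. The rise was 8.33-fold in LPE (log2 fold change 3.06, SE 0.19, adjusted p = 2.9e-08, edgeR) and 13.9-fold in CPE (log2 fold change 3.80, SE 0.19, adjusted p = 2.6e-09, edgeR), the largest rises among the 40 members in both comparisons, and CPE was 1.67-fold above LPE (adjusted p = 0.0035).

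Pdlim4 instead had 15, 17 and 19 counts in T, 50, 0 and 70 in LPE and 0 in all 3 CPE libraries. CPE was at least 10.6-fold below T and at least 15.2-fold below LPE, with the empty group set to 3 counts per library, a bound for counting error alone. EdgeR called both falls (adjusted p = 0.0062 and 0.0075), although LPE replicate 2 also had 0 counts and so overlapped CPE. Genes such as this met the count rule through the media in which they were present, so a difference from the empty medium was built into their choice. Pdlim5 and Pdlim7 were not called in any comparison, Pdlim5 standing at 34.4 ± 11.3, 31.7 ± 12.8 and 30.6 ± 6.21 CPM and Pdlim7 having 17, 21 and 26 counts in T, 17, 23 and 61 in LPE and 18, 9 and 10 in CPE.

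Among the motors, calls differed from gene to gene. Myh10, the non-muscle myosin IIB heavy chain, was the one heavy chain of myosin II that met the rule and was not called, with 41.5, 22.0 and 24.6 CPM in T, against 36.1, 72.1 and 28.5 in LPE and 29.2, 58.8 and 49.6 in CPE. The ranges of the 3 media overlapped for Myh10. Another heavy chain gene, Myh9, had at most 9 counts in any library. Whether this reflects its expression or the counting of its reads was not tested. Myl12b, a regulatory light chain, had 90.6, 86.9 and 78.1 CPM in T, against 165, 175 and 233 in LPE and 142, 109 and 104 in CPE, without overlap of the groups. It rose 2.25-fold in LPE (log2 fold change 1.17, SE 0.18, adjusted p = 2.0e-04, edgeR) and CPE stood 1.61-fold below LPE (adjusted p = 0.013), a call lost without LPE replicate 3 or CPE replicate 2 or 3 (adjusted p = 0.0556 to 0.0646). Its close relative Myl12a was not called, at 273 ± 30.5, 337 ± 30.1 and 271 ± 43.4 CPM. The light chain gene Myl9, typical of smooth muscle, had 8, 1 and 4 counts in T, 7, 78 and 16 in LPE and 3, 0 and 36 in CPE, so that 1 library held most of the reads of its group in LPE and in CPE.

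Of the unconventional myosins, Myo10, which carries cargo to the tips of filopodia, was higher in CPE. Its libraries had 252, 171 and 199 CPM in T, against 185, 224 and 172 in LPE and 289, 296 and 313 in CPE. CPE lay above both other media, which overlapped. The change was 1.54-fold against LPE and 1.44-fold against T (edgeR adjusted p = 0.0085 and 0.014), the second lost without T replicate 2 or 3 (adjusted p = 0.0589 to 0.0801). Myo1c, a membrane-linked motor, was 1.496-fold higher in LPE than in T, and CPE was 1.48-fold below LPE (edgeR adjusted p = 0.032 and 0.048). The first call was lost without any T replicate or LPE replicate 1 or 2 (adjusted p = 0.0557 to 0.119) and the second without any one library other than LPE replicate 3 (adjusted p = 0.057 to 0.122). Myo5a, which encodes a vesicle motor, was not called, at 20.2 ± 5.88, 12.3 ± 6.37 and 19.4 ± 3.78 CPM in T, LPE and CPE. Nor was Myo1e, with 9, 5 and 5 counts in T libraries, 33, 0 and 56 in LPE and 17, 36 and 56 in CPE.

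Tropomyosins, which set which proteins may bind a filament, rose in part. Tpm1 had 74.2, 71.2 and 55.8 CPM in T, against 134, 106 and 72.1 in LPE and 154, 140.1 and 196 in CPE. CPE stood above both others, and LPE overlapped T. Its rise was 2.43-fold in CPE (log2 fold change 1.28, SE 0.23, adjusted p = 4.8e-04, edgeR) and 1.56-fold in LPE (adjusted p = 0.046), the latter lost without any one library other than LPE replicate 3 (adjusted p = 0.0522 to 0.19). Tpm3 rose 1.52-fold in LPE, from 137 ± 3.52 to 209 ± 21.0 CPM (adjusted p = 0.0031, edgeR), and CPE stood 1.33-fold below LPE (adjusted p = 0.04), which was lost without any one library other than LPE replicate 3 (adjusted p = 0.0584 to 0.0977). Tpm4 was at 97.1 ± 5.98, 105 ± 8.50 and 110.1 ± 31.3 CPM and Tpm2 at 8, 3 and 5 counts in T, 53, 10 and 13 in LPE and 0, 13 and 0 in CPE. Neither was called.

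Calponins and transgelins, small proteins that coat filaments, were lower in the serum-free media wherever they were called against T. Tagln2, the broadly expressed transgelin, had 950.0, 943 and 923 CPM in T, against 539, 544 and 482 in LPE and 466, 495 and 512 in CPE. T lay far above both other media, which overlapped. It fell 1.799-fold in LPE and 1.91-fold in CPE (edgeR adjusted p = 8.1e-06 and 2.4e-06). The ratio of Tagln2 to Actb reads went from 0.680, 0.719 and 0.700 in the T libraries to 0.0939, 0.112 and 0.102 in LPE and 0.0559, 0.0655 and 0.0774 in CPE. That ratio also holds the larger rise of Actb, 3.81-fold in LPE and 5.58-fold in CPE. Cnn3, the acidic calponin, had 293, 248 and 235 CPM in T, against 118, 106 and 154 in LPE and 177, 171 and 286 in CPE. LPE was below both others, and CPE replicate 3 reached the T range. Its fall in LPE was 2.05-fold (log2 fold change -1.04, SE 0.20, adjusted p = 0.0011, edgeR), and CPE was 1.67-fold above LPE (adjusted p = 0.016), a call lost without LPE replicate 1 or 2 or CPE replicate 3 (adjusted p = 0.051 to 0.097).

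The smooth muscle forms of both families were near the limit of detection. Cnn1 had 20, 22 and 11 counts in T, 17, 0 and 6 in LPE and 0 in every CPE library. Against T it was at least 11.4-fold lower in CPE (edgeR adjusted p = 0.0077), with CPE set to 3 counts per library. That bound covers counting error alone. As for Pdlim4, a difference from the empty medium was built into the choice of Cnn1. CPE against LPE, with 1 LPE library also at 0, was not called (edgeR adjusted p = 0.051). Tagln had 17, 7 and 4 counts in T, 8, 0 and 19 in LPE and 16, 0 and 4 in CPE and was not called. Fewer genes were detected in LPE (8607 to 9314) and CPE (9162 to 9878) than in T (10143 to 10621), so a 0 at such counts does not show that a gene was silent.

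Of the membrane linkers only radixin was called, and it rose in both serum-free media. Rdx had 163, 153 and 168 CPM in T, against 402, 417 and 336 in LPE and 265, 283 and 249 in CPE. The groups did not overlap, with CPE between T and LPE. The rise was 2.38-fold in LPE and 1.65-fold in CPE, and CPE was 1.45-fold lower than LPE (edgeR adjusted p = 3.1e-06, 4.3e-04 and 0.0061). Ezr, or ezrin, which is characteristic of epithelial microvilli, was at 626 ± 64.2, 742 ± 87.6 and 581 ± 73.2 CPM. Msn, or moesin, was at 41.7 ± 5.60, 26.5 ± 5.10 and 32.8 ± 8.97 CPM, and neither it nor Ezr was called in any comparison.

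Srf, the transcription factor gene, had 28.9, 20.8 and 22.3 CPM in T, against 20.1, 33.6 and 19.9 in LPE and 17.1, 12.0 and 8.38 in CPE. Every CPE library was below every other library, but the test was not passed (log2 fold change -0.94 against T and -0.97 against LPE, edgeR adjusted p = 0.1 and 0.12). Ankrd1, a mechanically induced Yap target, had 19, 33 and 29 counts in T, 72, 52 and 27 in LPE and 11, 14 and 19 in CPE. Scaled to depth, every CPE library was below every other library. Its fall in CPE was 3.42-fold against T and 3.81-fold against LPE (edgeR adjusted p = 0.041 and 0.042). Both calls were lost without any T replicate or CPE replicate 1 or 2 (adjusted p = 0.0674 to 0.176 and 0.0712 to 0.127, the second range with LPE replicate 1 included). Jph1, a junctophilin that joins the plasma membrane to the endoplasmic reticulum in muscle, had 15, 20 and 31 counts in T, 15, 15 and 0 in LPE and 0 in each CPE library. Against T it was at least 13.5-fold lower in CPE (edgeR adjusted p = 0.0047) and at least 3.73-fold lower than in LPE (adjusted p = 0.032), the latter lost without any one library other than LPE replicates 2 and 3 (adjusted p = 0.0598 to 0.0808). Both bounds set CPE to 3 counts per library and cover counting error alone. As for Pdlim4, a difference from the empty medium was built into the choice of Jph1.

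**Figure D4:**
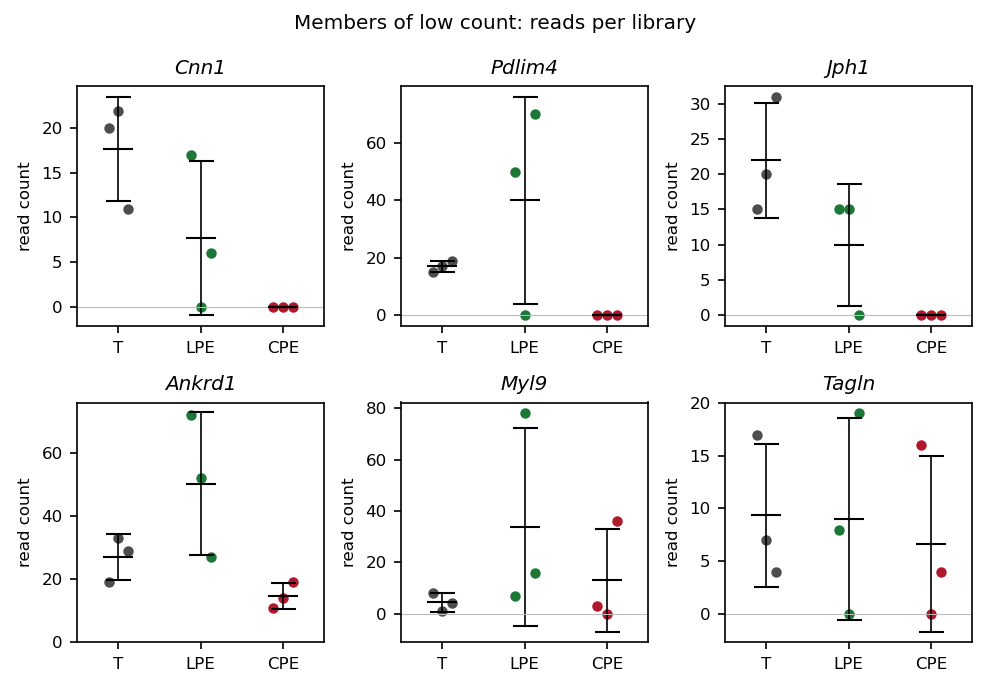
Read counts of 6 members of low count in each library of T, LPE and CPE, not scaled to depth; points are libraries, the long dash is the mean and the bar is 1 SD (n = 3). Cnn1, Pdlim4 and Jph1 are at 0 in all 3 CPE libraries, and Myl9 and Tagln vary as much within a medium as between media.

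Srf binds the CArG box, which reads as a CArG box on both strands, and the promoters of these genes were searched for it in windows from 250 bases before to 50 after each RefSeq start in GRCr8. Windows were found for 33 of the 40 members, and 3 of these, 9.09%, held a CArG box, against 1.77% of 27457 genes. They were Srf itself, Actg1 and Myo1e, and only Actg1 was called in any comparison. No window was available for Actb, Myl9, Tagln, Actn4, Parva, Ankrd1 and Jph1, so these were not searched for either motif. The windows around the boxes are shown 5′ to 3′ on the strand of the gene, with the box in capitals, because actin state is known to act on such genes through Srf. Srf holds a pair of boxes. Positions are counted from the start, and the windows are chr9:21923975-21924044 on the plus strand for Srf (-101 to -32), chr10:106121012-106121061 on the minus strand for Actg1 (-110 to -61) and chr8:79768712-79768761 on the plus strand for Myo1e (-116 to -67).
Srf: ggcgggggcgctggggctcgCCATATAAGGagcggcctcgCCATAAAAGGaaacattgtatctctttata
Actg1: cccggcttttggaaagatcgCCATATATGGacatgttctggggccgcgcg
Myo1e: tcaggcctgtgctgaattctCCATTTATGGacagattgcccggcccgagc

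The motif GGAATG, bound by the Tead partners of Yap, was searched for on both strands in the same windows; it can share 2 letters with the end of a CArG box, but no member held both motifs. It was present for 8 of the 33 members, 24.2%, against 15.0% of all genes. The 8 were Flna, Flnc, Myh10, Pfn1, Tagln2, Tpm1, Vcl and Zyx, which include members that rose, members that fell and one that was not called. Shown for members with opposite changes are Zyx (chr4:72203775-72203820, plus strand) and Vcl (chr15:3404942-3404987, minus strand), which rose in both serum-free media, Tagln2 (chr13:87499218-87499301, plus strand), which fell in both, and Flnc (chr4:58999406-58999451, plus strand), which rose in LPE and fell in CPE. Capitals mark the motif, written CATTCC where it lies on the opposite strand. Tagln2 holds it at 2 places. A match is a description of the letters in the window, not a site or a cause.
Zyx: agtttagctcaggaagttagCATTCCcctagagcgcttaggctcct
Vcl: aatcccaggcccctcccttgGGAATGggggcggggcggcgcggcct
Tagln2: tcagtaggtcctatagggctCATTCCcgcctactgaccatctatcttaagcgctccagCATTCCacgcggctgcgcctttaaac
Flnc: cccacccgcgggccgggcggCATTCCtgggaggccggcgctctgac

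Other parts of the actin apparatus were read from 6 further lists of genes. In LPE against T, 5 of 17 tested genes of the Arp2/3 complex and its activators, which nucleate branched filaments, rose and 3 fell, with Actr3 1.78-fold higher and Brk1 2.19-fold lower. Of 23 genes for capping, severing and monomer binding 4 rose and 5 fell. They included the severing proteins gelsolin, Gsn, at 54.4 ± 12.7 CPM in T and 282 ± 38.3 in LPE, and Scin, at 1.07 ± 0.608 and 30.5 ± 11.4 CPM, both of which rose, and the monomer-sequestering thymosin gene Tmsb4x, which fell 3.12-fold. Scin, barely counted in T, was tested and named through the other media, so a difference from T was built into its choice. Further focal adhesion genes gave 6 rises and 4 falls of 30, with Fhl1 9.03-fold lower. Spectrins and other cortex genes gave 11 rises and 2 falls of 27, with the adducin gene Add3 5.90-fold higher, other myosins 5 and 1 of 12, and Srf cofactors and further Srf or Yap targets 4 and 1 of 12. In this last list Crim1, a membrane protein that binds bone morphogenetic proteins, was 3.49-fold higher, F3, which encodes tissue factor, was 2.42-fold lower, and Elk3, a partner of Srf, was 6.09-fold higher, a call lost without any one T replicate or LPE replicate 3 (edgeR adjusted p from 0.0501 to 0.113). Over all genes 15.0% rose and 14.7% fell. Median log2 fold changes of the 6 lists ran from -0.11 to 0.64, and the median of all genes was -0.03.

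In CPE against T the same lists gave 5 rises and 1 fall of 17, 4 and 4 of 23, 4 and 8 of 30, 11 and 1 of 27, 3 and 1 of 12 and 2 and 2 of 12, in the same order, with medians from -0.07 to 0.36. All genes gave 16.8% higher and 15.3% lower, with a median of -0.01. Among the cortex genes Epb41l1, a protein 4.1 that ties spectrin to the membrane, went from 3.21 ± 1.96 to 115 ± 16.9 CPM, and Lcp1, the bundling protein plastin 2, from 0.375 ± 0.325 to 13.5 ± 7.70 CPM, a call lost without T replicate 3 (edgeR adjusted p = 0.057). Lcp1, barely counted outside CPE, was tested and named through CPE, so a difference from T was built into its choice. In the list of Srf and Yap targets Crim1 rose 2.64-fold, and Elk3 was called 5.05-fold higher, which was lost without any one library other than LPE replicate 2 and CPE replicate 3 (edgeR adjusted p from 0.0526 to 0.381). F3 fell 7.15-fold and the Yap target Cyr61 fell 2.21-fold, the latter call lost without T replicate 1 or 2 or CPE replicate 1 or 2 (edgeR adjusted p from 0.071 to 0.105).

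In CPE against LPE the lists gave 3 rises and 1 fall of 17, 1 and 2 of 23, 4 and 8 of 30, 5 and 2 of 27, 0 and 1 of 12 and 0 and 3 of 12, with medians from -0.61 to 0.09. All genes gave 9.56% higher and 8.23% lower, with a median of 0.01. Tmsb4x was 4.27-fold higher in CPE, at 192 ± 34.0 against 44.9 ± 16.8 CPM. Nexn, a filament-binding protein of adhesions and Z-discs, had 6, 30 and 71 counts in LPE and 0 in every CPE library, a fall that was not called with reads of either strand counted (edgeR adjusted p = 0.30). As Nexn was named through its level in LPE, a difference from the empty medium was built into its choice. Actr3, of the Arp2/3 complex, was 1.61-fold lower and its partner Arpc1a 2.13-fold higher.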

How the data were processed

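The deposited tables hold the authors' raw counts of reads per gene, in columns for either strand, the first-read strand and the opposite strand. Libraries were made with a directional kit after removal of ribosomal RNA and sequenced paired-end over 101 cycles, per the labels' protocols. The submitters' processing notes name CASAVA 1.8.2, Trimmomatic 0.33, STAR 2.5.1, DESeq2 and build rn6. The sources used here name no annotation. Counts come from the opposite-strand column; the other strand held 0.822% to 0.986% of strand-assigned gene reads. The 4 summary lines of each table (in all 85.2% to 92.0% of reads) were kept out. Counts were tested with edgeR 4.0.16 (R 4.3.3), quasi-likelihood F test over all 9 libraries, TMM factors, a low-count filter by filterByExpr with minimum count 10 and minimum total 15, with Benjamini-Hochberg adjustment over 9130 genes and calls at an adjusted p under 0.05. CPM use TMM factors. SEs are the log2 fold change over the square root of F. The method was tested on simulated counts.

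Members, lists and tests were chosen with earlier results of these data known. Members called with a change of at least 2-fold are given per library. Others are given by group, or per library where this was chosen after their values were seen. One further list of genes is not reported here. Of the others, up to 2 rises and 2 falls per list and comparison, at 10 CPM or more in the higher group, could be named. Genes barely counted in a medium met this level through the other group, so that difference was built into their choice. No gene lengths were used, so levels of different genes are not compared, and a planned ordering by coding length was not made. All 40 member symbols matched RefSeq's GRCr8 table, from which promoter sequences come. Alternatives were DESeq2 1.42.0 (test and size factors), other filters, the replicate number as a block, either-strand counts, fits of 2 media and each library left out. Lower bounds cover counting error only, whereas SEs come from the fit and include the spread between replicates. The least different pair of replicates still had 1.94 times the sampling variance, so all 9 libraries were kept.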

Additional observations from a re-analysis of the deposited data

Results flagged for a closer look

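In 3 members a sizeable share of the strand-assigned reads lay on the strand opposite to the gene, which none of the comparisons uses, against 0.822% to 0.986% over all genes. Myh10 had 255 such reads beside 1113 on its own strand, or 18.6%, Ilk 197 beside 1415, or 12.2%, and Tagln 34 beside 75, or 31.2%. In the GRCr8 table Myh10 overlaps Ndel1 and Ilk overlaps Taf10. With reads of either strand counted, Ilk was called lower than T in both LPE and CPE, whereas on its own strand it was not.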

How the results depend on the processing

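Of the 52 member calls, 36 were kept in each of the 16 alternatives that tested them and none reversed; over all calls and alternatives 727 were kept and 103 lost significance. Pdlim4 and Jph1 in CPE against LPE were not tested in the fit of those 2 media. In CPE against LPE, 16 members were called, but 10 with only the 2 media compared in the fit (6 falls in place of 11) and 11 with the replicate number as a block (7 falls). Leaving out 1 library at a time gave 14 to 17 member calls in LPE against T, 14 to 21 in CPE against T and 11 to 15 in CPE against LPE, the last with 3 to 5 rises and 7 to 11 falls. The fit of 2 media tested fewer genes, held fewer libraries and estimated the spread without the third medium. In the main fit the spread behind CPE against LPE was estimated with T included. Median spread was 1.46 times the sampling variance in T, 10.2 in LPE and 7.89 in CPE. Fits without a single library held fewer samples. The cause of these changes, and of the change with the block, was not tested. Same-numbered libraries of different media had correlations of their deviations between -0.03 and 0.01. No pairing by number was seen, but deviations from means of 3 libraries cannot exclude one. The block is given as a check, and it called 16 members in LPE against T and 17 in CPE against T. DESeq2's own test called 18, 19 and 19 members. Scaling by DESeq2 size factors changed no member call, and moved the median log2 fold change of all genes from -0.03 to -0.01 in LPE against T. The counts of all genes called were 2558 to 2877, 2751 to 3664 and 1103 to 1921 in the 3 comparisons under settings other than leaving out a library, against 2716, 2928 and 1624. Counts of 0 occurred in at least 1 LPE library for 5 members and in at least 1 CPE library for 6, against 0 members in T, the medium with the lowest depth.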

Other observations

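Acta1, which encodes skeletal muscle alpha-actin and was listed only as a marker of striated muscle, had 21.8, 14.5 and 6.97 CPM in T, against 117, 62.8 and 95.8 in LPE and 3.54, 4.77 and 2.25 in CPE. LPE was 6.40-fold above T, and CPE was 3.95-fold below T and 25.3-fold below LPE (edgeR adjusted p = 1.4e-04, 0.0033 and 3.2e-06), and it was singled out after its values were seen. Myl3, a light chain of slow and cardiac muscle, had 85.7, 56.8 and 62.8 CPM in T, against 55.3, 31.4 and 60.6 in LPE and 16.8, 16.6 and 14.8 in CPE and was called lower in CPE than in T and LPE. Of the other 10 striated muscle markers in the tables, Actc1, Myh7, Tnnt2, Tnni3 and Tnnc1 had at most 3.54 CPM in any library, and Myh6, Myl2, Myl4, Myl7 and Ryr2 were at 0 in all 9 libraries.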
